A study of Rattus norvegicus with 12 samples.

Results

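The genes described here are 10 genes of the integrated stress response, Atf4, Atf5, Ddit3, Trib3, Sesn2, Ddit4, Asns, Psat1, Phgdh and Chac1. They were chosen by name, with earlier results of these data known. They are the rows of the deposited expression table whose gene symbol is one of these 10, out of 21556 genes in all. Shares of the 10 set beside shares of all tested genes are therefore a description, not independent support. Each symbol matched 1 row. RNA was sequenced from ND7/23 cells, a hybrid line made by fusing rat dorsal root ganglion neurons with the mouse neuroblastoma line N18Tg2. There were 12 libraries, 3 in each of 4 groups. Control cells received neither agent, menthol cells received 100 μM menthol, Wnt3a cells received 100 ng/ml Wnt3a, and menthol+Wnt3a cells received both at these doses, and all groups were collected at 6 h. Menthol opens the cold-sensing channel TRPM8, and Wnt3a is a ligand that stabilises β-catenin. Whether control cells received the solvent of menthol is not given in the sources used here. Values are FPKM, read fragments scaled by the length of the gene and the number of fragments mapped, so that levels can be compared between genes as well as between libraries.

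The integrated stress response begins when 1 of 4 kinases (PERK, GCN2, PKR or HRI) phosphorylates the translation factor eIF2α in response to unfolded protein, lack of amino acids, viral RNA or mitochondrial and heme stress. General translation then falls, while the mRNA of ATF4, a bZIP transcription factor, is translated more. ATF4 with its partners switches on genes of amino acid synthesis and uptake, and, if stress lasts, CHOP and genes of cell death. Much of the control of ATF4 itself is on translation, which mRNA levels do not show.

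Reads on genes ranged from 36914010 to 38836269 per library, and 16983 to 17386 genes were above 0. Replicates of each group were compared in 12 pairs, and every pair exceeded sampling noise, with a chi-square per degree of freedom of 3.48 to 7.27 over genes. Separate libraries of 1 culture can also exceed it, so this cannot show separate cultures. Each library was counted as a replicate by its label. The labels do not say that replicates were separate cultures, and p-values then measure only the spread between these libraries. The label of the cells was checked against 13 markers of sensory neurons and neuroblastoma. Of these, 10 stayed under 1 FPKM in every library, among them Prph, Tubb3, Stmn2 and Pou4f1, while Uchl1 (94.2 to 111 FPKM), Isl1 (9.28 to 17.6 FPKM) and Nefh (5.6 to 6.42 FPKM) were present. Of 6 fibroblast markers, Col1a2 was at 109 to 126 FPKM and the others were far lower. Col1a1 was at 5.91 to 7.83 FPKM, Pdgfra at 5.75 to 7.35 FPKM and Col3a1 at 1.78 to 3.06 FPKM, while Dcn and Lum stayed under 1 FPKM. The cells are therefore named only by the line's name. Reads were assigned on a rat genome, and the share that came from mouse transcripts is unknown, as is the part of either species in any value below.

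ATF4 with C/EBP partners binds the C/EBP-ATF response element, so the promoters of the 10 genes were searched for its core, TGATGNAA, on both strands. RefSeq promoter windows of the rat assembly GRCr8 were used, each the 250 bases before the annotated start, and all 10 genes matched a window by gene identifier. The core was in 2 of 10 windows, those of Chac1 and Trib3, and in 3.4% of 33469 windows of the assembly. These stretches are shown because they hold a letter match to the core of the element that ATF4 binds. Binding was not measured. Capitals mark the match, which lies on the opposite strand and so appears as its reverse complement, and which begins 167 bases before the start in Chac1 and 21 bases before it in Trib3.
Chac1, GRCr8 chr3:126795938-126795997, plus strand: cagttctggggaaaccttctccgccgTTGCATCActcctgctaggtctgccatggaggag
Trib3, GRCr8 chr3:161275534-161275580, minus strand: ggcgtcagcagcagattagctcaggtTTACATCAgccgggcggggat

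The core of the hypoxia response element, ACGTG, was in 4 of 10 windows and in 16.6% of all windows. It is shown for Ddit3 and Ddit4, which were higher with Wnt3a at an unadjusted p, and for Asns and Atf4 as the other windows that hold it. Trib3, also higher with Wnt3a at an unadjusted p, held no match. Asns and Atf4 had log2 changes with Wnt3a of only 0.01 and 0.02. These 4 windows had 57.2% to 68.8% GC, against a median of 51.2% over all windows, and the shares are not matched for GC. Capitals mark the match, and CACGT is the same core on the opposite strand. In Atf4 the stretch reads as the palindrome CACGTG, so that matches on both strands overlap, and a further match begins 248 bases before the start.
Ddit3, GRCr8 chr7:65001549-65001605, plus strand: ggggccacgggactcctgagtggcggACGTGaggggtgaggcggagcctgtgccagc
Ddit4, GRCr8 chr20:28437145-28437201, minus strand: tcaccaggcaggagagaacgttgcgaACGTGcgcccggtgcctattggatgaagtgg
Asns, GRCr8 chr4:36769543-36769599, minus strand: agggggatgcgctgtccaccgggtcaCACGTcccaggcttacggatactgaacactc
Atf4, GRCr8 chr7:113684573-113684629, plus strand: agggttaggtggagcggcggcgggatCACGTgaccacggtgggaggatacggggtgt

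The window of Psat1 is shown whole because this was the gene that passed the test below. It holds none of the 5 motifs searched and so carries no capitals.
Psat1, GRCr8 chr1:222645409-222645658, minus strand: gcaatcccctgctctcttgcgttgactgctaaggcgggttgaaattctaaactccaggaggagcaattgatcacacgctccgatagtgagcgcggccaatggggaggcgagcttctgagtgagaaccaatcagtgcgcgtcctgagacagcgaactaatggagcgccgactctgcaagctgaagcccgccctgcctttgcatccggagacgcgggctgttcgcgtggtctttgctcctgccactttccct
No window of the 10 held the cAMP response element TGACGTCA (1.59% of all windows), the TCF/LEF motif CTTTGAT (3.15%) or the ER stress response element (0.0657%). A match is a description of letters in this window, and no match says nothing of sites elsewhere.

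All 10 genes were expressed well above the minimum of a mean of 0.5 FPKM, and all were among the 11451 genes tested. Atf4 was the most abundant, with a mean of 206 FPKM over the 12 libraries, which placed it 302nd among the tested genes. Atf5 followed with 121 FPKM and Chac1, an enzyme that degrades glutathione, with 84.6 FPKM. Sesn2 (58.9 FPKM) and Psat1 (58.1 FPKM) had close means and overlapping ranges. Within libraries, Sesn2 was above Psat1 in every library without menthol and below it in most libraries with menthol. Asns came next with 46.4 FPKM, with 1 menthol library reaching into the lowest values of Psat1. Ddit3 (34.7 FPKM) and Ddit4 (32.5 FPKM) had overlapping ranges over libraries. Within each of the 12 libraries Ddit3 was at or above Ddit4, with both at 29.3 FPKM in control replicate 1. Trib3 (16.1 FPKM) lay below all of these and Phgdh (8.67 FPKM) below Trib3 in every library. The coefficient of variation within groups averaged 3.55% for Asns at the low end and 7.84% for Atf5 at the high end. Counting error in the library with the fewest reads on the gene was 0.894% for Atf4, with 12524 reads, and 4.23% for Phgdh, with 559 reads.

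**Figure D1:**
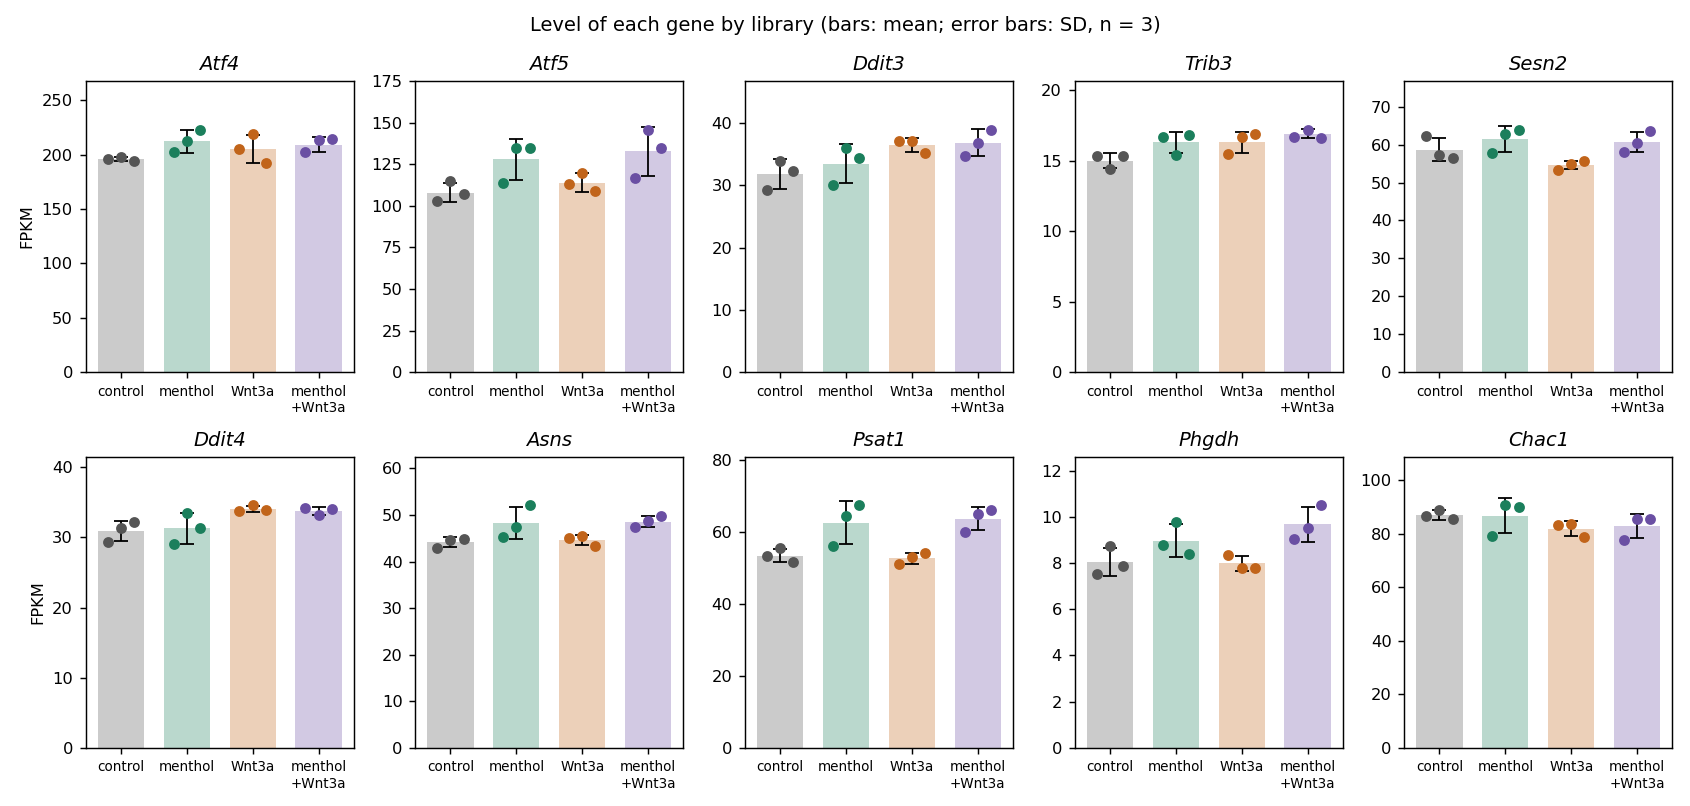
FPKM of each gene in the 12 libraries, with 1 panel per gene and its own axis from 0. Points are libraries, bars are means and error bars are SD (n = 3 per group). The 6 libraries with menthol lie at 56 to 67.4 FPKM for Psat1, above the 51.1 to 55.4 FPKM of the 6 without, and differences between groups are small beside the level of each gene.

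Each stimulus was first compared over all 12 libraries, the 6 with it against the 6 without, each balanced for the other. Differences are given as log2 changes of FPKM + 0.1 from limma with a shared spread, and a gene passes at a Benjamini-Hochberg adjusted p under 0.05 over the 11451 tested genes. With menthol, the point estimates of all 10 genes were above 0, with a median of 0.10 against a median of -0.001 over all tested genes, but those of Chac1 (0.004) and Ddit4 (0.002) were close to 0 and fell below it when libraries were centred on their median. Psat1 passed and rose, and it was the only 1 of 10 to do so (10%), where 1.15% of all tested genes passed. At an unadjusted p under 0.05, 7 of 10 were higher and 0 lower, where 15.5% of all tested genes met this in either direction and 7.34% were higher. The 7 were Atf4, Atf5, Trib3, Sesn2, Asns, Psat1 and Phgdh. Values of the libraries with and without menthol did not overlap for 1 of 10, Psat1, against 1.54% of all genes in either direction and 0.795% higher. In limma voom on read counts recovered from the FPKM steps, 5 of 10 passed, Asns, Sesn2, Psat1, Phgdh and Atf5, against 2.57% of all genes.

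With Wnt3a, 0 of 10 passed, against 0.803% of all tested genes. At an unadjusted p under 0.05, 3 of 10 were higher and 0 lower, where 14.2% of all genes met this in either direction and 7.61% were higher. The 3 were Ddit3, Trib3 and Ddit4. Groups overlapped for all 10 genes, where 1.17% of all genes did not overlap in either direction and 0.629% were higher without overlap. In limma voom 0 of 10 passed, against 2.44% of all genes, with the lowest adjusted p at 0.0502 for Ddit3 and 0.0537 for Ddit4. The median over the 10 genes was 0.04, and that over all tested genes 0.003.

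**Figure D2:**
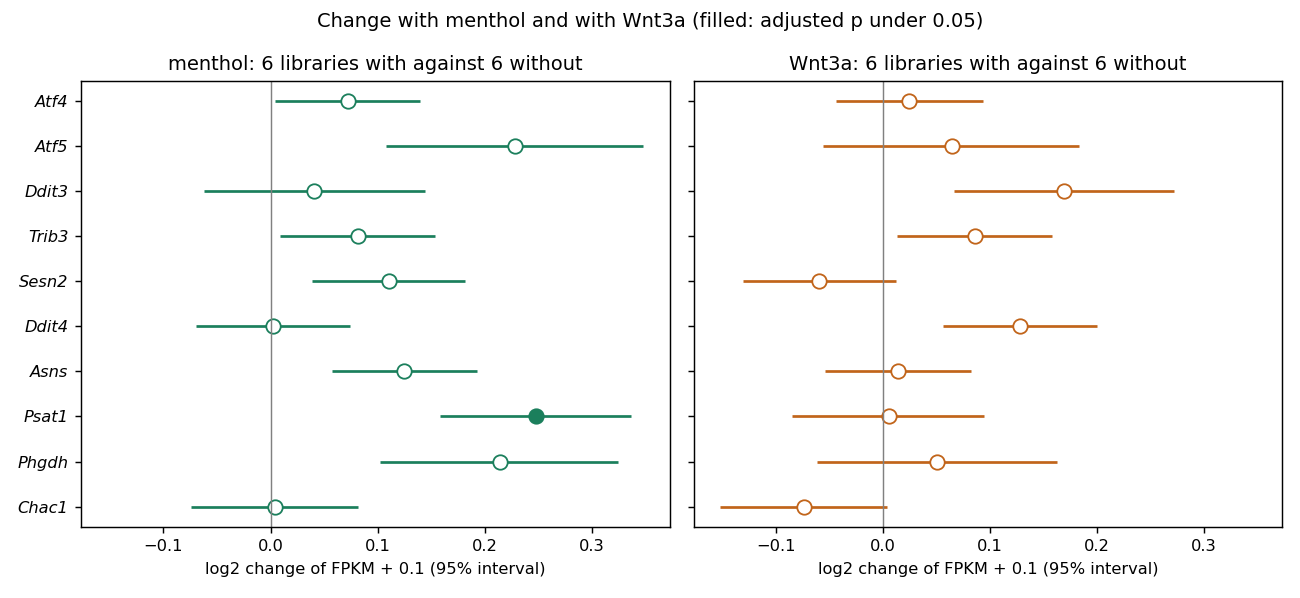
Log2 change of each gene with menthol (left) and with Wnt3a (right), each from 6 libraries with against 6 without. Circles are limma estimates on log2(FPKM + 0.1), lines are 95% intervals, and a filled circle marks an adjusted p under 0.05. Psat1 with menthol, at 0.25, is the filled circle, and Ddit3, at 0.17, has the highest estimate with Wnt3a.

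Markers of other cell types were followed beside these differences. The summed FPKM of 6 fibroblast markers, of which 2 stayed under 1 FPKM in every library, was 124 to 128 in the libraries with menthol and 129 to 145 in those without, so it was lower wherever menthol was given, and Col1a2 made up most of it. The summed FPKM of the 13 neuronal markers was 112 to 120 in control, 117 to 128 with menthol, 120 to 128 with Wnt3a and 121 to 133 with both. Schwann cell, myeloid and endothelial markers summed to at most 2 FPKM per list in any library, with Sox10 and Ptprc at or near 0. Skeletal muscle markers summed to 7.6 to 10 FPKM and epithelial markers to 1.47 to 2.83 FPKM. The muscle sum was 7.72 to 8.25 FPKM with menthol and 9.26 to 10 FPKM with Wnt3a, while in control (7.72 to 9.97 FPKM) and with both agents (7.6 to 9.47 FPKM) it overlapped these. The part of these shifts in the results was not tested. In RNA of whole cultures, fewer cells of a type and less RNA per cell cannot be told apart.

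Psat1 encodes phosphoserine aminotransferase, an enzyme of serine synthesis from a glycolytic intermediate. Control libraries had 53.2, 55.4 and 51.6 FPKM and Wnt3a libraries 51.1, 53 and 54 FPKM. Menthol libraries had 56, 64.4 and 67.4 FPKM and menthol+Wnt3a libraries 59.9, 65 and 66.2 FPKM. Every library with menthol lay above every library without, and replicate 1 was the lowest of both groups given menthol. The means were 53.4 ± 1.88 FPKM (SD, n = 3) in control and 62.6 ± 5.93 FPKM (SD, n = 3) with menthol. With menthol the log2 change over all libraries was 0.25 with an SE of 0.04, a 1.19-fold higher value (95% interval 0.16 to 0.34 on the log2 scale), and the limma adjusted p was 0.0114. It passed without any 1 of the 12 libraries, with log2 changes of 0.22 to 0.29 and adjusted p of 0.00129 to 0.0426, and missed the threshold at 0.0534 when no minimum of FPKM was set. With Wnt3a its log2 change was 0.005, with a 95% interval from -0.08 to 0.09.

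Phgdh encodes the dehydrogenase at the entry of the same pathway. It had 7.54, 8.73 and 7.85 FPKM in control, 8.76, 9.76 and 8.38 FPKM with menthol, 8.35, 7.8 and 7.78 FPKM with Wnt3a, and 9.02, 9.53 and 10.5 FPKM with both. The 3 libraries with both agents were above all libraries without menthol, while 1 menthol library lay within the range of those without. Its log2 change with menthol was 0.21 with an SE of 0.05, and the adjusted p was 0.0647 in limma and 0.0497 in limma voom, so the call turned on the test. With Wnt3a its log2 change was 0.05, with a 95% interval from -0.06 to 0.16.

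Asns makes asparagine from aspartate and glutamine. It had 43, 44.7 and 44.8 FPKM in control, 45.2, 47.5 and 52.1 FPKM with menthol, 45, 45.4 and 43.4 FPKM with Wnt3a, and 47.5, 48.8 and 49.7 FPKM with both. All menthol libraries were above all control libraries, but the lowest of them was below the highest Wnt3a library. With menthol the log2 change was 0.13 with an SE of 0.03, and the adjusted p was 0.0767 in limma and 0.0178 in limma voom. Without menthol replicate 1 the change was 0.15 and passed in limma at 0.0248. With Wnt3a its log2 change was 0.01, with a 95% interval from -0.05 to 0.08.

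Among the transcription factors, Atf5, a bZIP factor under the same translational control as ATF4, had the largest point estimate with menthol. It had 103, 115 and 107 FPKM in control, 114, 135 and 135 FPKM with menthol, 113, 120 and 109 FPKM with Wnt3a, and 117, 146 and 135 FPKM with both. In both groups given menthol, replicate 1 stood near the libraries without it and the other 2 stood well above. The log2 change was 0.23 with an SE of 0.06, and the adjusted p was 0.065 in limma and 0.00209 in limma voom. Without menthol replicate 1 it passed in limma, with a log2 change of 0.27 and an adjusted p of 0.023, and without menthol+Wnt3a replicate 1 likewise, with 0.27 and 0.0194. With Wnt3a its log2 change was 0.06 and the adjusted p 0.666.

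Atf4 had 196, 198 and 194 FPKM in control, 202, 212 and 223 FPKM with menthol, 205, 219 and 192 FPKM with Wnt3a, and 202, 213 and 214 FPKM with both. All libraries with menthol were above the control libraries, and the Wnt3a libraries spanned both. With menthol Atf4 had a log2 change of 0.07 with an SE of 0.03 (95% interval 0.004 to 0.14), and the adjusted p was 0.298. With Wnt3a it was 0.02, with an adjusted p of 0.788.

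Ddit3 encodes CHOP, the bZIP factor linked to cell death under lasting stress. It had 29.3, 34 and 32.4 FPKM in control, 30, 36 and 34.4 FPKM with menthol, 37.2, 37.1 and 35.2 FPKM with Wnt3a, and 34.7, 36.9 and 39 FPKM with both. All 3 Wnt3a libraries were above all control libraries. Ddit3 had a log2 change with Wnt3a of 0.17 with an SE of 0.05 (95% interval 0.07 to 0.27), which did not pass, at an adjusted p of 0.125. With menthol it was 0.04, with an adjusted p of 0.731.

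Of the regulators of mTORC1 and of signaling, Ddit4, which encodes the mTORC1 inhibitor REDD1, had 29.3, 31.3 and 32.2 FPKM in control, 29.1, 33.5 and 31.3 FPKM with menthol, 33.8, 34.6 and 33.9 FPKM with Wnt3a, and 34.2, 33.2 and 34.1 FPKM with both. The Wnt3a and menthol+Wnt3a libraries lay within a narrow band at the top, and 1 menthol library, replicate 2, reached into it. With Wnt3a the log2 change was 0.13 with an SE of 0.03 and the adjusted p was 0.101. Without menthol replicate 2 it was 0.15 and passed at 0.0483. With menthol it was 0.002, with a 95% interval from -0.07 to 0.07.

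Sesn2, a leucine sensor that restrains mTORC1, had 62.2, 57.4 and 56.4 FPKM in control, 57.8, 62.8 and 64 FPKM with menthol, 53.4, 54.8 and 55.6 FPKM with Wnt3a, and 58.2, 60.4 and 63.6 FPKM with both. The Wnt3a libraries were below all others. The log2 change with menthol was 0.11 with an SE of 0.03, and the adjusted p was 0.133 in limma and 0.0439 in limma voom. With Wnt3a it was -0.06 and the adjusted p 0.456.

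Trib3, a pseudokinase that ATF4 and CHOP induce and that acts back on both, had 15.3, 14.4 and 15.3 FPKM in control, 16.7, 15.4 and 16.8 FPKM with menthol, 15.5, 16.7 and 16.9 FPKM with Wnt3a, and 16.7, 17.2 and 16.6 FPKM with both. Each treated library was above each control library. The log2 change was 0.08 with menthol and 0.09 with Wnt3a, both with an SE of 0.03, and neither passed, at adjusted p of 0.257 and 0.26.

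Chac1 had 86.4, 89 and 85.4 FPKM in control, 79.1, 90.6 and 90.1 FPKM with menthol, 83.3, 83.5 and 78.8 FPKM with Wnt3a, and 77.7, 85.4 and 85.5 FPKM with both. The Wnt3a libraries were below all control libraries, and the groups with menthol overlapped those without. The log2 change with menthol was 0.004, with a 95% interval from -0.07 to 0.08, and with Wnt3a it was -0.07, with an interval from -0.15 to 0.004 and an adjusted p of 0.379. Chac1 and Trib3, the genes whose windows hold a match to the core of the C/EBP-ATF response element, had estimates of opposite sign with Wnt3a, of which neither passed.

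The comparisons between groups of 3 use parts of the same libraries, so each is given by its own values. For menthol against control, 0 of 10 passed in limma, where 0.105% of all tested genes did. At an unadjusted p under 0.05 there were 5 of 10, all higher, Atf4 (0.11), Trib3 (0.12), Asns (0.13), Psat1 (0.22) and Atf5 (0.24), against 9.34% of all genes. Psat1 was the 1 gene that passed in limma voom, at an adjusted p of 0.0363, against 0.524% of all genes, and in limma it passed only without menthol replicate 1, with a log2 change of 0.30 and an adjusted p of 0.0448. Groups did not overlap for 4 of 10, Atf4, Trib3, Asns and Psat1, all higher, against 15.9% of all genes.

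For menthol added to Wnt3a, menthol+Wnt3a against Wnt3a, 0 of 10 passed in limma, where 0.0524% of all genes did. At an unadjusted p under 0.05 there were 5, all higher, Asns (0.12), Sesn2 (0.15), Psat1 (0.27), Phgdh (0.27) and Atf5 (0.22), against 14.5% of all genes. Psat1 had an adjusted p of 0.0836 in limma, 0.0360 without menthol replicate 1, and 0.00631 in limma voom, where it was the 1 gene of 10 to pass, against 1.25% of all genes. Groups did not overlap for 4 of 10, Asns, Sesn2, Psat1 and Phgdh, against 17.7% of all genes.

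For Wnt3a against control, 0 of 10 passed in limma, against 0.437% of all genes, and 0 in limma voom, against 2.65%. At an unadjusted p under 0.05 there were 4, Ddit3 (0.20), Trib3 (0.12) and Ddit4 (0.14) higher and Sesn2 (-0.10) lower, against 15.1% of all genes. Groups did not overlap for 5 of 10, Ddit3, Trib3 and Ddit4 higher and Chac1 and Sesn2 lower, against 20.2% of all genes. The lowest adjusted p in limma was 0.181, for Ddit4. For Wnt3a added to menthol, menthol+Wnt3a against menthol, 0 passed in limma (0.0961% of all genes) and 0 in limma voom (0.288%). Ddit4 was the 1 gene at an unadjusted p under 0.05, with a log2 change of 0.11 and an adjusted p of 0.656, against 6.72% of all genes, and groups overlapped for all 10, where 11.3% of all genes did not overlap.

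For both agents against control, 0 of 10 passed in limma, where 0.83% of all genes did, with the lowest adjusted p at 0.0719 for Psat1 and 0.11 for Atf5. At an unadjusted p under 0.05 there were 7 of 10, all higher, against 13.5% of all genes. These were Ddit3 (0.21), Trib3 (0.17), Asns (0.14), Ddit4 (0.13), Psat1 (0.25), Phgdh (0.26) and Atf5 (0.29). Both Psat1 and Atf5 passed in limma voom, at 0.00484 and 0.00636, so 2 of 10 did, against 2.28% of all genes. In limma, Psat1 passed without menthol replicate 1, at 0.0140, and both passed without menthol+Wnt3a replicate 1. Groups did not overlap for 8 of 10, all but Chac1 and Sesn2, against 20.5% of all genes.

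The interaction asks whether menthol acted differently with Wnt3a than without it. Of the 10 genes, 0 passed in limma or in limma voom, as did 0% of all tested genes in either, and 0 had an unadjusted p under 0.05, against 6.99% of all genes. Estimates ran from -0.08 for Atf4 to 0.12 for Phgdh, and the intervals were wide beside the changes themselves, from -0.11 to 0.34 for Phgdh and from -0.13 to 0.23 for Psat1. These data do not show that the change with menthol was alike with and without Wnt3a.

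**Figure D3:**
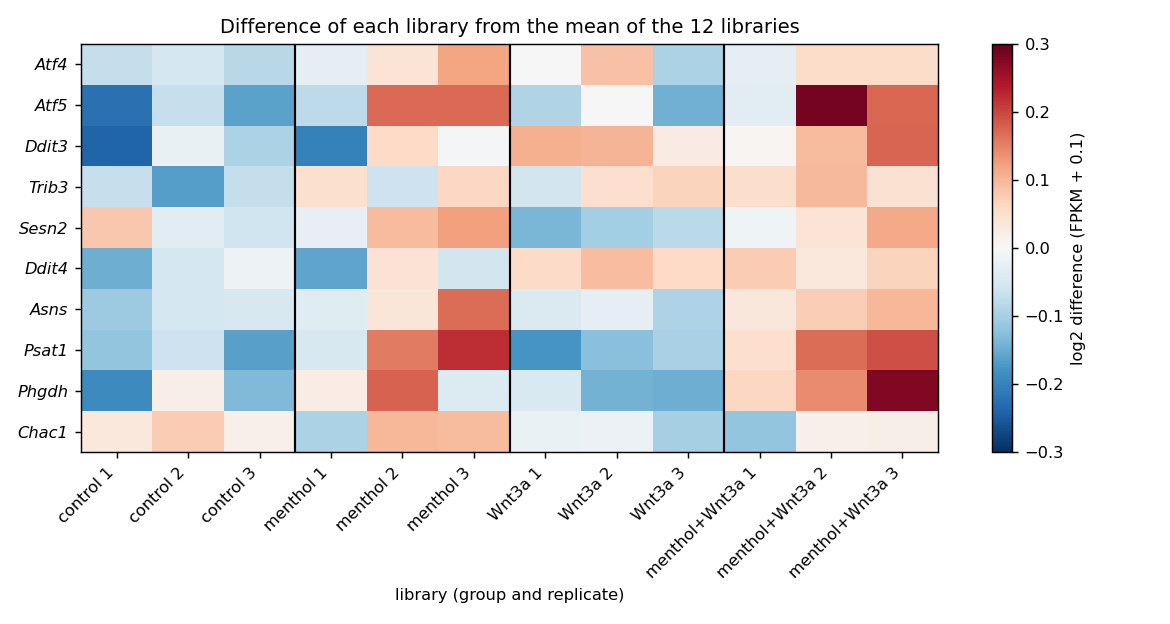
Log2 difference of each library from the 12-library mean (FPKM + 0.1), with genes in rows, libraries in columns and groups parted by black lines. In menthol+Wnt3a replicates 2 and 3 all 10 genes are above the mean, and replicate 1 is the lowest of its group for 8 of 10 genes both with menthol and with menthol+Wnt3a.

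Within groups the 10 genes also varied between libraries. Menthol replicate 1 was the lowest of its group for 8 of 10 genes, and so was menthol+Wnt3a replicate 1 for 8 of 10, while menthol+Wnt3a replicate 3 was the highest for 7. The median log2 difference of the 10 genes from the 12-library mean was -0.04 in menthol replicate 1 and 0.08 and 0.11 in its partners. In the control libraries it was -0.11, -0.05 and -0.08. Of 45 pairs of genes, 41 had a Pearson correlation above 0 over the 12 libraries, with a median of 0.43, and after group means were removed 37 did, with a median of 0.43. Before group means were removed, Asns and Psat1 (0.90) and Ddit3 and Ddit4 (0.89) were the closest pairs, and Trib3 and Chac1 (-0.48) the farthest apart. After it, Chac1 and Atf5 (0.91) were the closest and Trib3 and Phgdh (-0.79) the farthest apart. The points of these correlations share their libraries and depth and are given as a description.

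Genes outside the 10 were ranked by their Pearson correlation over the 12 libraries with the mean z-score of the 10. The leading 5 of the tested genes were Sars1 (0.97) and Cars (0.94), the seryl- and cysteinyl-tRNA synthetases, Borcs6 (0.94), Ube2j1 (0.93) and Slc35e4 (0.92). Ranked on single members, the leading genes were Slc6a9 for Asns (0.94), Eprs for Psat1 (0.94), Aldh18a1 for Sesn2 (0.94), Nars1 for Atf5 (0.96) and Cog6 for Phgdh (0.93). For the others they were Pea15 for Atf4 (0.93), Atp6ap2 for Ddit3 (0.95), Cdc5l for Trib3 (0.86), Plekho2 for Chac1 (0.92) and LOC102553529 for Ddit4 (0.92). No test was made on these values.

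The wider pathway was described by lists of genes, each by its counts and its median log2 change. These lists too were chosen with earlier results of these data known. Amino acid transporters had all 11 of 11 tested genes higher with menthol, with a median of 0.10 against -0.001 over all tested genes, and 3 passed, all higher. Slc6a9, a glycine transporter, was at 9.25 ± 0.57 FPKM in control and 11.7 ± 1.12 FPKM with menthol (SD, n = 3 each), and its log2 change of 0.35 passed at an adjusted p of 0.00537. Slc7a5, the light chain of the large neutral amino acid transporter, changed by 0.18 (adjusted p 0.0133), and Slc1a5, a glutamine transporter, by 0.14 (adjusted p 0.0189). Slc1a5 did not pass without control replicate 2 or 3, menthol replicate 3, Wnt3a replicate 1 or menthol+Wnt3a replicate 2, with adjusted p up to 0.0639. With Wnt3a, 6 of 11 were higher and none passed, with a median of 0.008.

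Cytosolic aminoacyl-tRNA synthetases, which charge tRNAs with amino acids, were higher with menthol for 15 of 20 genes, with a median of 0.07, and 4 passed, all higher. These were Iars1 (0.17, adjusted p 0.00884), Nars1 (0.12, 0.0318), Tars1 (0.10, 0.0353) and Yars1 (0.12, 0.0405), the last named after its value was seen. Iars1 passed without any 1 library. Nars1 passed in only 9 and Tars1 in only 8 of 19 alternative settings, with adjusted p up to 0.0888 and 0.0883 without control replicates 3 and 2. Yars1 was not followed over these settings. With Wnt3a 11 of 20 were higher, the median was 0.01 and none passed.

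Serine, glycine and one-carbon enzymes other than the members Psat1 and Phgdh were split, 8 of 16 higher with menthol and a median of 0.004, and the 2 of these 16 that passed encode mitochondrial enzymes. Mthfd2 changed by 0.17 (adjusted p 0.0251) and Shmt2 by 0.12 (adjusted p 0.0498), and Shmt2 missed the threshold without most single libraries, reaching 0.124 without control replicate 3, where Mthfd2 reached 0.0781. Psph, which completes serine synthesis after Psat1, changed by 0.10 with menthol (adjusted p 0.353). With Wnt3a 10 of 16 were higher, the median was 0.02 and none passed. Of other enzymes of amino acid synthesis and breakdown, 7 of 13 were higher with menthol, with a median of 0.005, and none passed. With Wnt3a 6 of 13 were higher (median -0.01), and the 2 that passed were lower. These were Glul, the glutamine synthetase (-0.12, adjusted p 0.0135), and Bcat1, a branched-chain aminotransferase (-0.12, adjusted p 0.0375). Bcat1 passed in 9 of 19 alternative settings and reached 0.101 without Wnt3a replicate 2.

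**Figure D4:**
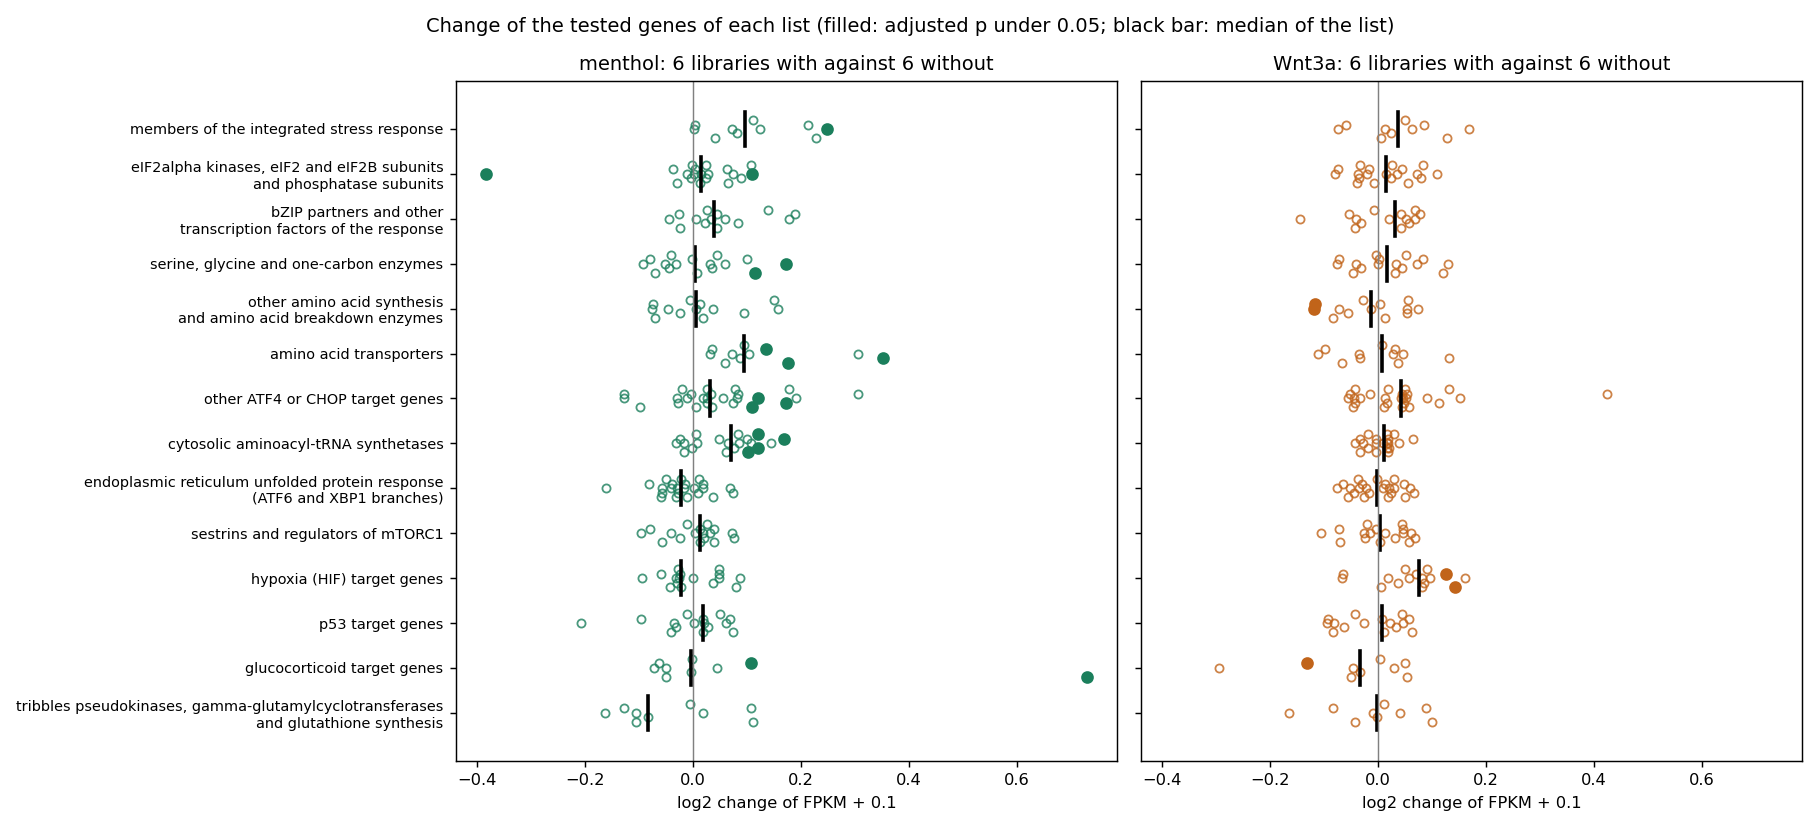
Log2 change of every tested gene of each list with menthol (left) and with Wnt3a (right), on 1 common axis, from 6 libraries with against 6 without. Points are genes, filled where the adjusted p was under 0.05, and black bars are list medians. The 11 amino acid transporters all lie right of 0 with menthol, and 14 of 16 hypoxia target genes lie right of 0 with Wnt3a.

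Upstream of ATF4, the list of eIF2α kinases, eIF2 and eIF2B subunits and phosphatase subunits had 13 of 19 genes higher with menthol and a median of 0.02. Ppp1r15a, which encodes GADD34, the phosphatase subunit that reverses the phosphorylation of eIF2α, was higher by 0.11 (adjusted p 0.0325). It passed in only 7 of 19 alternative settings, with an adjusted p up to 0.102 without control replicate 3. Oma1, a mitochondrial protease that signals mitochondrial stress to HRI, was lower by 0.38 (adjusted p 0.00537), with 6.62 ± 0.36 FPKM in control and 5.1 ± 0.17 FPKM with menthol (SD, n = 3 each), and passed without any 1 library. None of the 4 kinases passed, with log2 changes with menthol of 0.06 for Eif2ak1, 0.02 for Eif2ak2, -0.002 for Eif2ak3 and 0.03 for Eif2ak4. With Wnt3a 10 of 19 were higher, the median was 0.02 and none passed.

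Of bZIP partners and other transcription factors, 11 of 14 were higher with menthol (median 0.04) and 8 of 14 with Wnt3a (median 0.03), and none passed in either. The largest estimates among those named by rule were 0.19 for Creb3l1 and 0.18 for Nupr1, both with menthol, at adjusted p of 0.216 and 0.139. Other target genes of ATF4 or CHOP were higher for 18 of 26 with menthol (median 0.03), and the 3 that passed, Mthfd2, Nars1 and Ppp1r15a, are also on lists above. With Wnt3a 18 of 26 were higher (median 0.04) and none passed.

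Of chaperones and other genes of the ATF6 and XBP1 branches of the unfolded protein response, 8 of 23 were higher with menthol, the median was -0.02 and none passed. Dnajb9 had a log2 change of -0.16 (adjusted p 0.0972), Xbp1 of -0.08 (adjusted p 0.179) and Hspa5, the chaperone BiP, of -0.03 (adjusted p 0.474). With Wnt3a 11 of 23 were higher, the median was -0.001 and none passed. Sestrins and regulators of mTORC1 other than the members had 11 of 17 higher with menthol (median 0.01) and 9 of 17 with Wnt3a (median 0.004), and none passed. The relatives of Sesn2 had log2 changes with menthol of -0.10 for Sesn1 (adjusted p 0.437) and -0.02 for Sesn3 (adjusted p 0.891), where that of Sesn2 was 0.11.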

How the data were processed

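RNA-seq libraries of ND7/23 cells (4 groups, 3 libraries each) were grouped by their sample labels. Per the labels and the study's methods, RNA was extracted with TRIzol, libraries were made with the VAHTS Universal V6 kit and sequenced on an Illumina NovaSeq, and fastp, HISAT, HTSeq, R 3.2.0 and DESeq2 and the build mRatBN7.2 are named in the submitters' processing notes. The authors deposited FPKM values per gene and library, with replicates not pooled, and no column of other samples. FPKM scales by gene length and library size, so that a rise of abundant genes lowers the rest.

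The 10 genes and the gene lists were chosen with earlier results of these data known. FPKM values were tested with limma 3.58.1 in R 4.3.3 (trend, all 12 libraries in 1 fit, no block, two-sided) on log2(FPKM + 0.1), which slightly understates the change of low genes, over genes with a mean of at least 0.5 FPKM. Whole reads were recovered for 21556 of 21556 genes from the steps of the FPKM values, none farther from a whole number than 9.3e-16 in relative terms, and used for limma voom as an alternative. This could not be checked for the 1804 genes seen in a single library. For a gene of 1 kb, the floor of 3 reads corresponds to 0.0772 to 0.0813 FPKM. The counting errors given for reads cover counting alone. The intervals given for log2 changes are from limma and rest on the spread between libraries. Alternatives were a further 2-fold threshold, pseudocounts of 0.01 and 1, a minimum of 1 FPKM or none, libraries centred on their median, the compared groups alone, the replicate number as a block, limma voom, and leaving out each library. Both tests and the recovery of reads were checked on simulated data. Of each list, the genes named were up to 3 that passed in any comparison by the smallest adjusted p, or, where none passed, the 2 with the largest change. Other list genes named, Yars1, Psph, Hspa5 and the 4 kinases, were chosen after their values were seen. Of each promoter only the 250 bases before the start were searched, without the transcribed part.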

Additional observations from a re-analysis of the deposited data

How the results depend on the processing

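The count of members that passed moved with the setting in 5 of the 8 comparisons. In the 6 against 6 comparison of menthol it was 1, 0 with a further 2-fold threshold, 0 with no FPKM minimum, 2 with the replicate block, 5 in limma voom, and 1 to 3 with single libraries left out. For menthol against control it was 0, 1 in limma voom and 0 to 1 with single libraries left out. For menthol+Wnt3a against Wnt3a it was 0, 1 with the replicate block, 1 in limma voom and 0 to 1 with single libraries left out, and against control 0, 2 with the replicate block, 2 in limma voom and 0 to 2 with single libraries left out. For the 6 against 6 comparison of Wnt3a it was 0, and 0 to 1 with single libraries left out. The calls gained were of Psat1, Atf5, Asns, Sesn2, Phgdh and Ddit4. With no FPKM minimum more genes are tested. The cause of the other differences was not tested. Deviations of same-numbered libraries correlated weakly, at -0.055 to 0.153. The 1 of 18 pairs above 0.1 was menthol replicate 1 with menthol+Wnt3a replicate 1. Even so, 7 of 12 libraries correlated best with their own number. Whether replicate numbers pair the libraries is not settled by these values, and the main fit used no block.

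Over the 10 genes, 8 comparisons and all settings but the 2-fold threshold, which leaves the log2 changes as they are, 1483 values kept direction and side of the threshold, 21 gained a call, 1 lost it (Psat1 with menthol, with no FPKM minimum) and 65 changed sign, none of them a result that had passed. With libraries centred on their median, the log2 change with menthol was -0.004 for Chac1 and -0.006 for Ddit4, and that of Psat1 with Wnt3a -0.001. The other sign changes came with single libraries left out, with these ranges. For menthol against control they were -0.042 to 0.056 for Chac1 and -0.034 to 0.066 for Ddit4. For Wnt3a against control they were -0.004 to 0.034 for Asns, -0.043 to 0.007 for Psat1 and -0.054 to 0.051 for Phgdh. For menthol+Wnt3a against Wnt3a they were -0.016 to 0.077 for Atf4, -0.027 to 0.057 for Ddit3, -0.011 to 0.062 for Chac1 and -0.020 to 0.001 for Ddit4. Against menthol they were -0.053 to 0.020 for Atf4, -0.033 to 0.069 for Asns, -0.062 to 0.013 for Sesn2, -0.050 to 0.084 for Psat1 and -0.028 to 0.144 for Atf5. For menthol, 6 against 6, they were -0.013 to 0.036 for Chac1 and -0.023 to 0.027 for Ddit4, and for Wnt3a -0.009 to 0.042 for Asns and -0.035 to 0.032 for Psat1. For the interaction they were -0.130 to 0.006 for Ddit3, -0.048 to 0.054 for Asns, -0.040 to 0.070 for Chac1, -0.078 to 0.022 for Ddit4, -0.031 to 0.103 for Psat1 and -0.100 to 0.071 for Atf5.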

Other observations

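Hypoxia (HIF) target genes, whose response elements hold the core ACGTG searched above, were higher with Wnt3a for 14 of 16 tested genes, with a median log2 change of 0.08 against 0.003 over all tested genes, and 2 passed. Bnip3, a mitochondrial autophagy receptor, was at 135 ± 0.87 FPKM in control and 155 ± 3.36 FPKM with Wnt3a (SD, n = 3 each), with a log2 change of 0.14 over all libraries (limma adjusted p 0.00375). Ndrg1 changed by 0.13 (adjusted p 0.0147). With menthol 7 of 16 were higher, the median was -0.02 and none passed. Ddit4, also known as a hypoxia target, had a log2 change of 0.13 with Wnt3a that did not pass.

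Glucocorticoid target genes, another set to which Ddit4 is known to belong, were higher with menthol for 3 of 9 (median -0.004) and with Wnt3a for 4 of 9 (median -0.03). With menthol 2 passed, Errfi1 (0.11, adjusted p 0.0063) and Mt2A, a metallothionein of a family of near-identical genes whose reads may be split (0.73, adjusted p 0.00942, and 0.0609 with no FPKM minimum). With Wnt3a Sgk1 was lower by 0.13 (adjusted p 0.0104). Of p53 target genes 9 of 15 were higher with menthol (median 0.02) and 8 of 15 with Wnt3a (median 0.007), and none passed. Fas had the largest estimate, -0.21 with menthol (adjusted p 0.156). Tribbles relatives, gamma-glutamylcyclotransferases and glutathione synthesis genes had 3 of 9 higher with menthol (median -0.08) and 4 of 9 with Wnt3a (median -0.002), and none passed. Trib2, a relative of Trib3, had a log2 change of -0.16 with menthol (adjusted p 0.341), and Chac2, a relative of Chac1, of -0.13 (adjusted p 0.559).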
